A study of Mus musculus with 27 samples.

Results

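The 12 single myofibers described here came from the muscle of mice labelled Smn1deltaSKM that had received no AFS (amniotic fluid stem) cells. They were chosen by their genotype and treatment labels alone and are 12 of the 27 samples of the series. The mice carry HSA-Cre, a Cre recombinase under the human skeletal actin promoter, together with Smn F7/F7, a floxed Smn1 allele, so that the deletion takes place in muscle fibers and all other cells keep the gene. All animals were males of 3 months. The tibialis anterior was digested with type I collagenase, 4 myofibers were picked from each of 3 mice, and the RNA of each myofiber was amplified for 18 cycles and hybridized alone to a 1-colour Agilent mouse array. Myofibers of 1 mouse share an animal and a digestion, and so are replicates of that mouse only.

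The tibialis anterior of the mouse is a fast muscle. A muscle fiber is a single cell with many nuclei, and its contraction speed follows from the myosin heavy chain it makes: Myh7 in slow fibers, Myh2 in IIa, Myh1 in IIx and Myh4 in IIb, the fastest and least oxidative. Fibers of the IIx and IIa types generally hold more mitochondria and more myoglobin than IIb fibers, and many fibers co-express 2 neighbouring chains. SMN, the protein lost in spinal muscular atrophy, assembles the small nuclear ribonucleoproteins of the spliceosome.

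Signals are given as log2 values relative to the 75th percentile of their own array, so that 0 is a spot at that percentile and a difference of 1 is a doubling. A spot without a value was not well above its background or was marked as uneven. A signal depends on the probe as well as on the transcript, so only myofibers are compared, never probes. Between 23183 and 37595 of the 55681 probes had a value on an array, most in mouse 2 myofiber 1, and 0 spots were saturated. Myofibers 1 to 3 of mouse 1 were scanned on a first day, and myofiber 4 of mouse 1 on a second day together with all of mice 2 and 3. Pairs of myofibers within mouse 2 or mouse 3 correlated at 0.955 to 0.988 across probes, and pairs between these mice at 0.944 to 0.976. Myofibers 1 to 3 of mouse 1 correlated with the other mice at only 0.810 to 0.896, while myofiber 4 of the same mouse reached 0.891 to 0.932, so that mouse and scan day cannot be told apart for those 3 arrays. Unless stated otherwise, a spread is therefore the residual SD after removing the mean of each mouse on each scan day.

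The signal of Smn1 itself is given first. The brighter of its probes (chr13:100898171-100898230, mm9) lay between 1.83 in mouse 2 myofiber 1 and 3.37 in mouse 1 myofiber 1, with a median of 2.57. The other probe lay between -1.41 and 0.66. Neither the place of the probes relative to the deleted exon nor the amount of intact transcript was determined, so these signals do not check the deletion. Between myofibers of 1 mouse the brighter probe of Smn1 varied little, with a residual SD of 0.219 against a typical 0.301 for genes of this brightness. The other probe was less even in mouse 1, with 0.40, -1.41 and 0.51 in myofibers 1 to 3. Of the other members of the SMN complex, Ddx20, an RNA helicase, had the widest spread (0.655), and 6 of 9 listed members were bright enough to test.

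Among the adult myosins, Myh4 was even over the 12 myofibers, between 6.67 and 7.40 (median 6.99, residual SD 0.228). Myh7 stayed between -1.38 and -0.18, and Myh2 had a value on 2 arrays only, -0.64 in mouse 3 myofiber 1 and -2.59 in mouse 3 myofiber 4. No myofiber was assigned a type from these signals.

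Myh1 was the exception to this evenness. Its signal was 3.94 and 5.22 in myofibers 1 and 3 of mouse 1, not well above background in myofiber 2 and 0.55 in myofiber 4. In mouse 2 it was 3.00, 4.91, 6.58 and 2.05, and in mouse 3 it was 3.01, 6.77, 5.23 and 2.37. Every mouse thus held both myofibers with a high and myofibers with a low Myh1 signal, over a range of 6.22 in the 11 cells with a value, whereas Myh4 ranged over 0.72 in all 12. The residual SD of Myh1 was 1.91 where a gene of its brightness typically had 0.277.

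Myh1 and Myh4 are neighbours on chromosome 11. The 250 bases before their start sites are printed here because the paired genes differed so much in spread (RefSeq, GRCm38.p6, plus strand, chr11:67199852-67200101 for Myh1 and chr11:67237562-67237811 for Myh4). Capitals mark the runs of at least 12 bases that both hold.
Myh1: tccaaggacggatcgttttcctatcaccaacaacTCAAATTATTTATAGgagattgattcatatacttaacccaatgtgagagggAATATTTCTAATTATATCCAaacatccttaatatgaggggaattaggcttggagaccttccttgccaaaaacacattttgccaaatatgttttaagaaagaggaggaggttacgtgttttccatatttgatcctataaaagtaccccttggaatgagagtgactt
Myh4: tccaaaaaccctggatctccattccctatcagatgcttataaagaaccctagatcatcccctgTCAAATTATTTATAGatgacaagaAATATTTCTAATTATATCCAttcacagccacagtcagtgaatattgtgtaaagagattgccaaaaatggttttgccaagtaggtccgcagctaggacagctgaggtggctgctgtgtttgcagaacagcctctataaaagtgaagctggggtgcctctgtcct
The shared runs are 20 and 15 bases long and cover 35 of the 250 bases in each gene. Among 27025 genes, the longer run lies in the same window of 3, which are Myh1, Myh4 and Myh2, and the shorter in 3, which are Myh1, Myh4 and Myh8. The letters of the consensus for MEF2, a family of muscle transcription factors, matched once in each window on either strand, and in 3.01% of all windows. A match describes the letters and not a bound site.

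To ask how unusual such a spread was, the residual variance of each of 18931 genes was compared with that of genes of the same brightness (limma). After adjustment for all genes the limma test called 0 as variable (0% of those tested, threshold 0.05), the smallest adjusted p being 0.953. Without adjustment 780 genes (4.12%) had a p under 0.05, while 946.6 would be expected if every variance came from the fitted distribution. That distribution was fitted to these same variances and allows them to differ between genes. The test therefore asks only whether a gene lies beyond it, and not whether genes differ in spread. A fit without a brightness trend also called 0. The residual SDs reported here are therefore descriptions of these cells. Across all genes the residual SD had a median of 0.333, quartiles of 0.238 and 0.459 and a 95th percentile of 0.750. Spots of the same probe printed repeatedly on 1 array differed far less. For 279 such probes the median SD between spots was 0.154 and the median residual SD between myofibers 0.386, the latter being the larger for 244 of them.

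**Figure D1:**
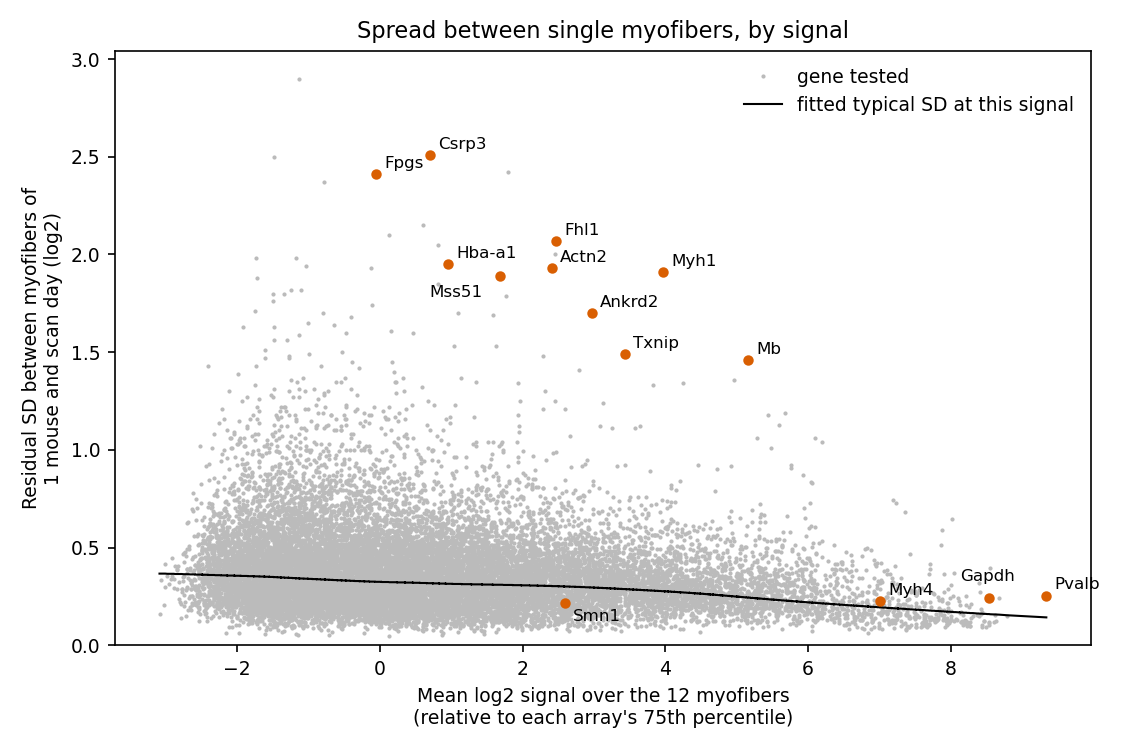
Each grey point is 1 of 18931 genes, with its mean log2 signal over the 12 myofibers on the horizontal axis and its residual SD between myofibers of 1 mouse and scan day on the vertical axis. The black line is the SD typical of genes of that brightness. Myh1, Mb, Fhl1, Actn2 and Ankrd2 (orange) stand between 1.46 and 2.07, while Myh4, Smn1, Gapdh and Pvalb lie between 0.219 and 0.254.

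The 15 probes of highest mean signal had residual SDs between 0.0937 and 0.395, beside an all-gene median of 0.333. Pvalb, the calcium buffer parvalbumin of fast fibers, lay between 8.93 and 9.85 (residual SD 0.254). Aldoa, the muscle aldolase, lay between 8.22 and 9.04 (0.244) and the glycolytic enzyme Gapdh between 8.07 and 8.81 (0.242). All 3 exceeded the SD typical of their brightness (0.143, 0.157 and 0.160). Not all of these 15 probes are easily read as abundant transcripts. The bright probes of Creb5, a transcription factor, and of Ccdc138, a coiled-coil protein, had sister probes with a value on 0 arrays. The sister probe of Ubtf, a factor for ribosomal RNA genes, lay between -2.11 and -1.44. Sister probes of Dennd4a had a value on 4, 1 and 1 arrays, and those of Ms4a4c on 0 and 6. For Sgsh and Slc10a1 the sister probe had a value on 4 and 2 arrays. That of Pvalb was bright on all 12, between 6.55 and 7.64.

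The wide spreads took several forms. In some genes the signal was graded over the myofibers of mice 2 and 3, in others 1 myofiber stood alone, and in a few 3 myofibers lay low together. Several muscle genes were of the first form. Myoglobin (Mb), which stores oxygen in oxidative fibers, was 4.59, 3.15, 4.42 and 5.55 in mouse 1. It was 4.23, 6.60, 7.23 and 3.66 in mouse 2, and 4.87, 7.33, 6.25 and 3.99 in mouse 3. The same myofibers were high as for Myh1 in mice 2 and 3, namely 2 and 3 of each mouse. Actn2, the Z-disc protein alpha-actinin-2, ran from -0.88 in mouse 3 myofiber 4 to 4.43 in mouse 3 myofiber 2, with a residual SD of 1.93. A second, dimmer probe of Actn2 did not show this: with values on 9 arrays, it lay between -2.70 and -0.64 (0.334), and read -1.47, -2.15, -1.57 and -1.75 in mouse 2. Fhl1, a LIM protein of the sarcomere, ran from -0.58 to 5.56 (2.07). Ankrd2, an ankyrin repeat protein of oxidative fibers that responds to stretch, ran from 0.40 to 5.74 (1.70). Csrp3, a muscle LIM protein of slow fibers and heart, reached 3.71 and 4.73 in myofibers 2 and 3 of mouse 2 and 4.49 in myofiber 2 of mouse 3 (2.51). In 7 of the other 8 myofibers measured for Csrp3 it stayed at or below 0.03, and in mouse 2 myofiber 1 it was 1.88. Atp1b1, the beta subunit of the sodium pump (1.79), Ptpn3, a tyrosine phosphatase (1.69), and Txnip, an inhibitor of thioredoxin and glucose uptake (1.49), were graded in the same way. The second probe of Txnip correlated with the first at 0.977 after removing the means of mouse and day.

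**Figure D2:**
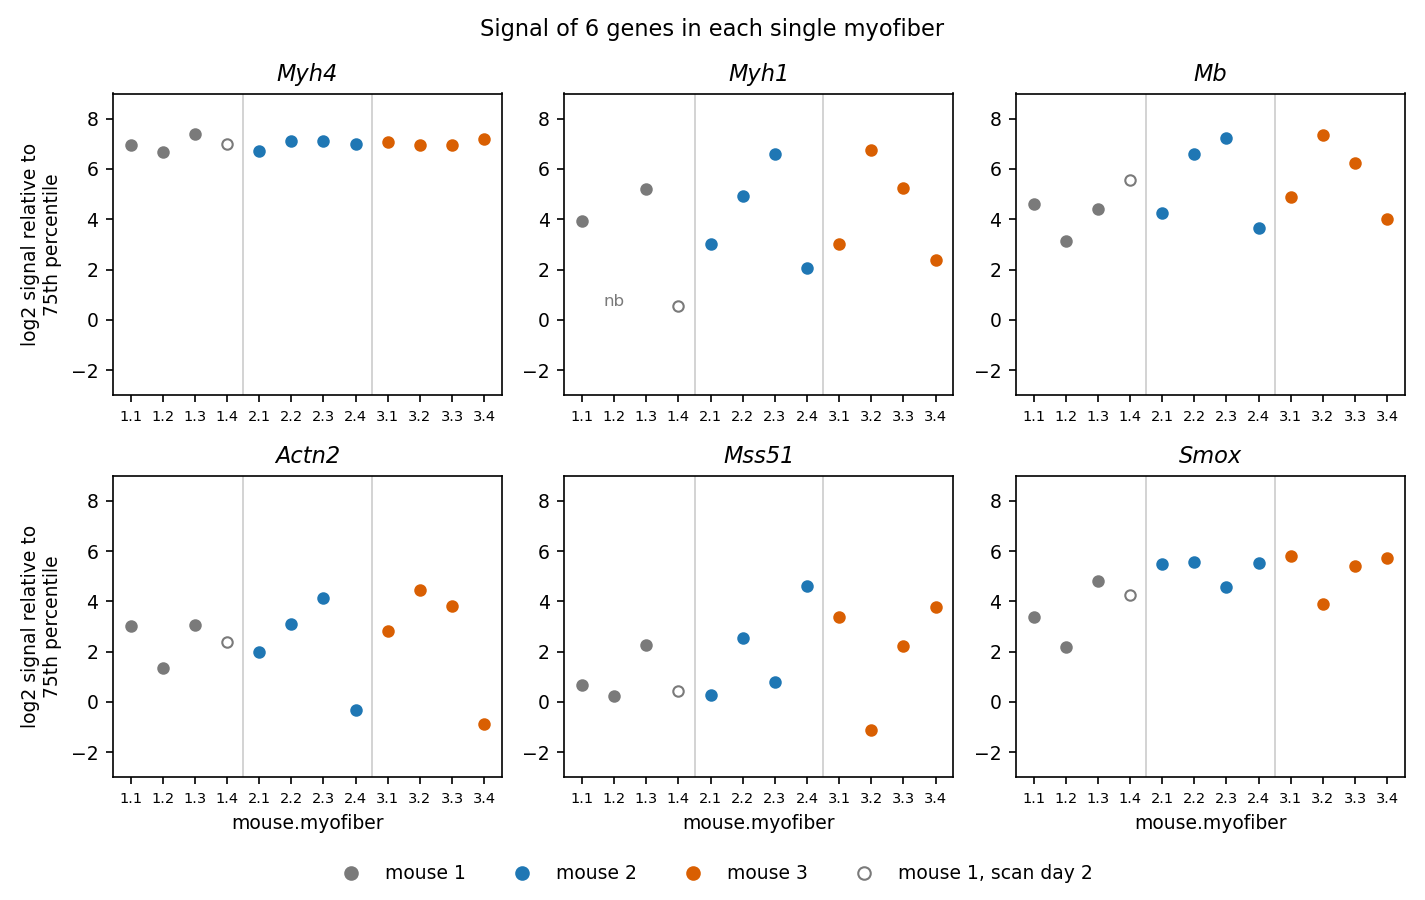
Log2 signal of 6 genes, relative to the array's 75th percentile, in each myofiber (mouse number, then myofiber number). Each point is 1 array, the open point is the myofiber of mouse 1 scanned on the second day, and nb marks a spot not well above background. Myh4 stays between 6.67 and 7.40, Myh1, Mb and Actn2 are high in myofibers 2 and 3 of mice 2 and 3, and Mss51 and Smox show the opposite order in several cells.

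Since myofibers of mice 2 and 3 shared a slide and a scan day, these 8 cells were used to describe which genes followed Myh1. Each gene was taken as its deviation from the mean of its mouse. The points share 1 slide and pass through the same scaling, and the correlations are given with no test. Of 16707 genes with a value in all 8 cells, 1441 (8.63%) correlated with Myh1 above 0.7 and 516 (3.09%) below -0.7. Among the closest were Ankrd2 (r = 0.991), Spint2, a protease inhibitor of the cell surface (0.990), and Mb (0.982). Coq8a, needed to make coenzyme Q (0.980), and Myh7b, a further myosin heavy chain (0.977), also lay near the top. The most opposite was Gdap1, a protein of the outer mitochondrial membrane that shapes mitochondria (-0.993), and Rin2 (-0.963), Gadl1 (-0.962) and Sparcl1, an extracellular matrix protein (-0.960), also lay near that end. Itpr1, the calcium channel of the endoplasmic reticulum, had -0.945. These lead a ranking over many genes and were not chosen beforehand.

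The respiratory chain followed Myh1 almost as a block. Of the 35 nuclear-encoded subunits listed, 33 (94.3%) had r above 0.7, against 8.63% of all genes, and 0 lay below -0.7. Cox4i1, a subunit of cytochrome oxidase, had r = 0.964, Uqcrb and Uqcrc1 of complex III had 0.960 and 0.951, and Ndufs8 of complex I had 0.948. Sdhd (0.635) and Ndufs1 (0.675) were the members under 0.7. In signal the steps were small. Uqcrc1 was 4.90, 5.37, 6.10 and 4.53 in mouse 2 and 5.36, 5.90, 5.66 and 4.79 in mouse 3, so myofibers 2 and 3 of each mouse were its highest cells and myofiber 4 its lowest, by smaller steps than those of Myh1. The mean over the list deviated from the mouse mean by 0.48 in mouse 2 myofiber 3 and by -0.48 in mouse 2 myofiber 4. In mouse 3 it deviated by 0.41 in myofiber 2 and by -0.58 in myofiber 4. The cells between did not follow Myh1 in mouse 3, since the list deviated by 0.15 in myofiber 1 (Myh1 3.01) and by 0.02 in myofiber 3 (Myh1 5.23). Over the 4 cells of 1 mouse such correlations are common, at 21.3% of all genes in mouse 2 and 16.8% in mouse 3. The count for the list was 35 of 35 in mouse 2 alone and 24 of 35 in mouse 3 alone, and over both mice 27 to 35 when 1 of the 8 myofibers was left out.

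All 6 transcripts of the mitochondrial genome with probes followed as well (6 of 6 above 0.7, from 0.783 for COX1 to 0.902 for ND4L), with 4 of 6 in mouse 3 alone. ND1, a subunit of complex I, was 7.75, 8.26, 8.32 and 7.26 in mouse 2 and 8.00, 8.01, 8.04 and 7.49 in mouse 3. Myofiber 4 was the lowest cell of both mice for either genome's list.

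Fatty acid use was the list with the widest typical spread among the metabolic ones. Its median residual SD was 0.669 against 0.333 over all genes, 10 of its 24 tested genes (41.7%) had an unadjusted p under 0.05 in the limma variance test against 4.12% of all, and 17 of 23 members (73.9%) had r above 0.7 with Myh1. Ppara, the nuclear receptor that drives fatty acid oxidation, had 0.955, Slc25a20, the carnitine carrier, 0.943, and Fabp3, the muscle fatty acid binding protein, 0.935. Acadvl, the first enzyme of long-chain oxidation, was 4.09, 4.97, 5.61 and 3.57 in mouse 2 and 4.60, 5.31, 4.46 and 3.52 in mouse 3. Acadl, the next enzyme in chain length, ranged from -0.90 to 3.14 over the 12 myofibers. Plin3, a lipid droplet coat protein, had the widest spread of the list (1.08). Members without this order included Ppard (-0.48), Plin2 (0.124) and Ucp3 (0.391). Lipid genes are also high in fat cells, and the adipocyte markers are given further on. Their summed signal, not centred on its mouse, correlated with the deviation of Myh1 at -0.301 over the same 8 cells. The mean of the tested adipocyte markers, taken as a deviation from the mouse mean, correlated at -0.203. The part of fat cells in this pattern was not tested.

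Contractile genes were mixed. Of 24 genes of the sarcomere and muscle identity, 4 (16.7%) had r above 0.7, namely Fhl1 (0.967), Actn2 (0.879), Mybpc1 (0.788) and Ldb3 (0.715), and 0 lay below -0.7. The list mean had r = 0.862, beside 0.449 for the mean of all genes tested. Of 13 fast-fiber genes other than Myh1, 0 had r above 0.7 or below -0.7, with Myh4 at 0.0755 and Actn3, the fast alpha-actinin, at -0.447. Of 19 genes of glycolysis and glycogen, 3 lay above 0.7 and 2 below -0.7. Gys1, glycogen synthase, was the highest (0.886), and Phka1, a subunit of phosphorylase kinase, the lowest (-0.772). In the slow and oxidative list 3 of 10 genes (Ankrd2, Mb and Csrp3) lay above 0.7, while the slow contractile genes Tnnc1 (-0.703) and Tnnt1 (-0.689) lay on the other side and Myh7 at -0.0159. Calcium handling had 0 of 17 beyond 0.7 in either direction. Mitochondrial and lipid genes, but not slow troponins, thus tended to run with Myh1, and their list means were lowest in myofiber 4 of both mice. They were not high in every cell with high Myh1. In mouse 3 myofiber 3 (Myh1 5.23) the respiratory chain and fatty acid lists deviated by only 0.02 and 0.04.

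Polyamine metabolism ran against Myh1. Of 9 listed genes, 5 (55.6%) had r below -0.7, against 3.09% of all genes, and 0 lay above 0.7. These were Sms, spermine synthase (-0.872), Amd2, a decarboxylase for S-adenosylmethionine (-0.869), Azin1, the antizyme inhibitor (-0.816), Smox, spermine oxidase (-0.815), and Odc1, the first enzyme of the pathway (-0.747). Smox was 5.49, 5.55, 4.56 and 5.52 in mouse 2 and 5.79, 3.89, 5.42 and 5.71 in mouse 3, so the myofiber with the highest Myh1 signal in each of these mice was the lowest for Smox. Mouse 1 ran the other way, with Smox highest (4.82) in myofiber 3, where Myh1 was highest (5.22), and lowest (2.20) in myofiber 2, where Myh1 was not well above background. The probes of Smox correlated at 0.866 with each other. Mss51, a mitochondrial protein enriched in fast glycolytic muscle, was also opposite in part (r = -0.734). It reached 4.62 in mouse 2 myofiber 4 and 3.78 in mouse 3 myofiber 4, and had its lowest signal, -1.13, in mouse 3 myofiber 2.

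**Figure D3:**
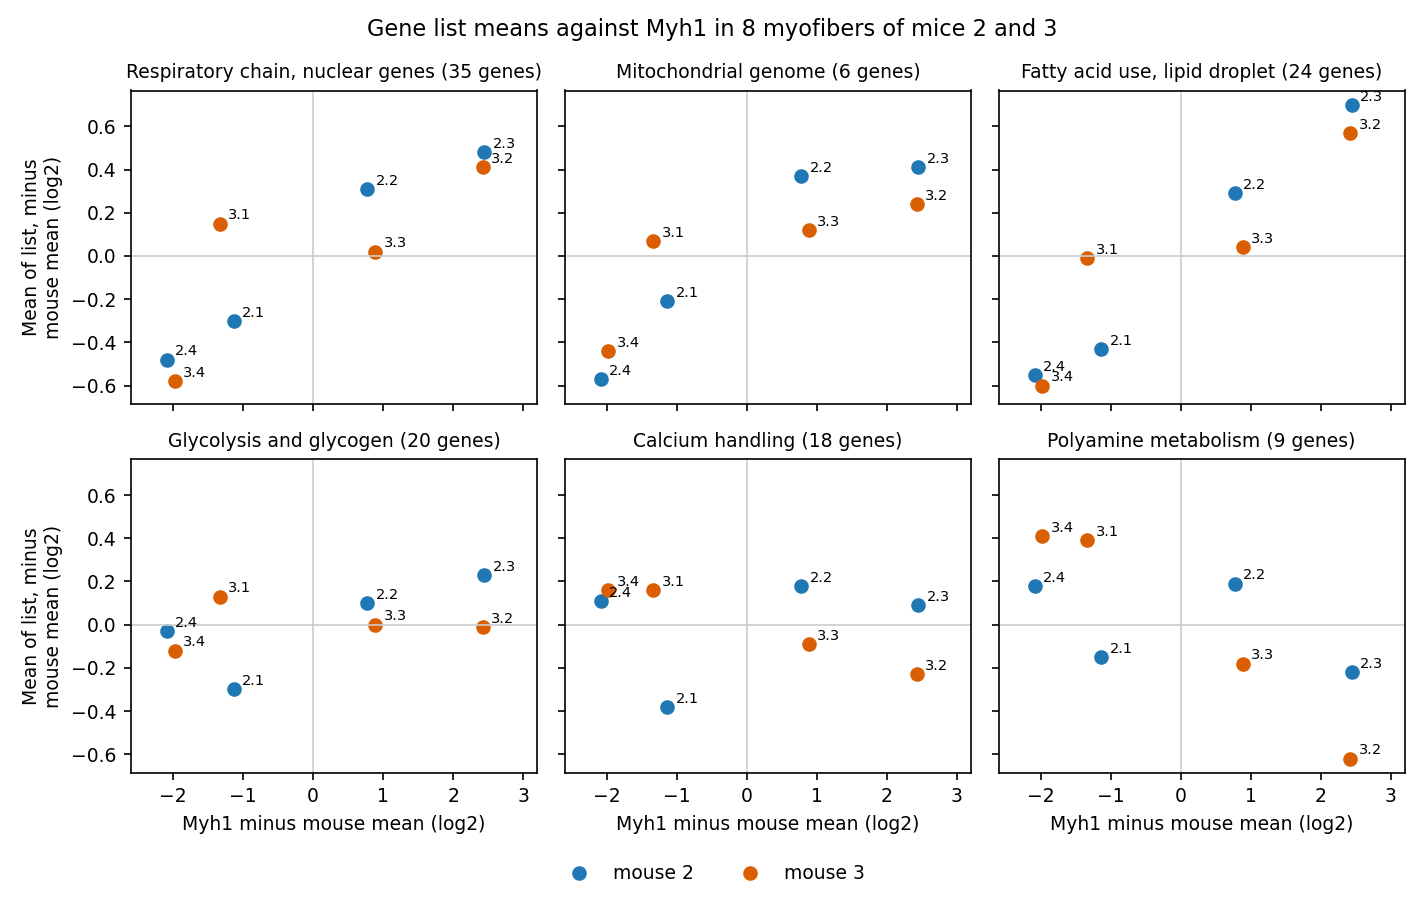
Mean deviation of 6 gene lists from their mouse mean (vertical) against the deviation of Myh1 (horizontal), both in log2 units, for the 8 myofibers of mice 2 and 3, labelled by mouse and myofiber number. The respiratory chain, mitochondrial genome and fatty acid lists are within each mouse lowest in myofibers 2.4 and 3.4 and highest in 2.3 and 3.2, with r of 0.875, 0.869 and 0.943. Glycolysis and calcium handling have r of 0.520 and -0.221, and the polyamine list has -0.775. The mean of all genes tested has r of 0.449, so the value of glycolysis lies near it.

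Mouse 1 did not repeat the pattern in full. Its myofiber 4 had the highest Mb signal of the mouse (5.55) with the lowest measured Myh1 signal (0.55), and it was scanned on another day than the other 3. Across the 10 myofibers of mice 1 to 3 that shared a mouse and day with another and had a Myh1 value, Ankrd2 and Mb kept correlations of 0.902 and 0.950, while Acss2, which makes acetyl-CoA from acetate, went from 0.968 to 0.515. Among all genes with a second probe, the deviations of the probes correlated above 0.7 for 33.1% of 3821. Of the 63 such genes whose correlation with Myh1 exceeded 0.9 in size, the probes correlated above 0.7 for 39 (61.9%).

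Immediate early genes respond to stimuli within minutes and can be induced by tissue dissociation. Their median residual SD was 0.655, and 9 of 26 (34.6%) had an unadjusted p under 0.05 in the limma variance test, beside 4.12% of all genes. The list mean deviated most in mouse 1, by 0.66 in myofiber 1 and -0.51 in myofiber 2, and by -0.25 to 0.37 in mice 2 and 3. Arc had the widest spread (1.12), between 1.87 in mouse 1 myofiber 2 and 5.37 in mouse 1 myofiber 1, with a median of 3.81. Ccn1, a matricellular protein, was 4.19, 4.87, 5.84 and 3.40 in mouse 2 and 2.91, 4.65, 2.79 and 2.67 in mouse 3, and followed Myh1 at 0.901. Fosb and Egr1 spread by 0.734 and 0.661. Across lists the members with the widest spread were Hspa1a among heat shock genes (1.09), Actc1, the cardiac and fetal actin, among developmental genes (1.12), Ache at the neuromuscular junction (0.810) and Atp2a2, the slow calcium pump (0.795). Ldhb led the glycolysis list (1.18), Plk2 the p53 targets (0.734), Mt3 the metallothioneins (0.750) and H2-D1 the interferon and antigen list (0.536). Ciart led the clock genes (0.799), Ndufs1 the respiratory chain (0.684) and ND6 the mitochondrial genome (0.415).

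In other genes of wide spread the signal was high in 1 cell. Fpgs, which adds glutamates to folate, was 7.14 in mouse 2 myofiber 1 and between -1.29 and -0.28 in the other 11 myofibers. Sybu, a kinesin adaptor, was 6.17 in the same myofiber and -2.57 to -0.68 elsewhere. Brap, a BRCA1-associated protein, was 6.81 in mouse 1 myofiber 1 and at most 1.09 elsewhere, and Olfr545, an odorant receptor, 7.12 in mouse 3 myofiber 3 and at most 0.46 elsewhere. Without mouse 2 myofiber 1, the residual SD of Fpgs went from 2.41 to 0.237. A gap of more than 2 log2 units between neighbouring signals occurred in 568 of the 18931 genes. These gaps were taken with no mean of mouse or scan day removed, so they include steps between mice and days. In 114 of the 568 the 3 first-day myofibers of mouse 1 lay above the gap together, and in 27 all of mouse 1 did. In 116 of the 568 mouse 2 myofiber 1 alone lay above the gap, in 67 mouse 1 myofiber 2, in 44 mouse 1 myofiber 3 and in 35 mouse 1 myofiber 1. Mouse 1 myofiber 2 alone lay below the gap in 53. Other probes of the same gene showed the step in some cases. Of the 59 genes of mouse 2 myofiber 1 with another probe, it was high there too, by more than 1 log2 unit over every other myofiber, in 17. For mouse 1 myofiber 2 this held in 14 of 30, for myofiber 3 in 8 of 29 and for myofiber 1 in 0 of 13. Skint9 (4.15) and Cd209d, a lectin of the immune system (4.34), were also high in mouse 2 myofiber 1 alone, while Dnajc13, an endosomal chaperone, was high in mouse 1 myofiber 2 (1.72) and mouse 2 myofiber 2 (0.87). Other probes of Sybu and Olfr545 had a value on 0 arrays. Whether such steps come from the cell, the amplification or the spot was not tested.

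In a further set, 3 myofibers lay low together. In 5 genes, myofiber 4 of mouse 1 and myofibers 3 and 4 of mouse 3 lay more than 2 log2 units below all others. Dpp8, a dipeptidyl peptidase, was 0.69, -0.19 and -0.04 in them and 2.96 to 4.59 in the other 9. 6430411K18Rik was -2.66, -2.64 and -2.36 in them and 1.78 to 4.26 elsewhere. Cep110, a centrosome protein, had its lowest signals, -1.61, -1.73 and -1.85, in the same myofibers. For Myh9, a nonmuscle myosin among these 5, the second probe correlated with the first at -0.429.

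Markers of other cells were then set beside these patterns. Blood markers varied most: the summed signal of 6 genes lay between -0.09 and 5.45, high in myofibers 1 to 3 of mouse 2 and myofiber 4 of mouse 3. Hba-a1, alpha globin, was 3.28, 4.29, 3.12 and 0.21 in mouse 2 and -0.82, -0.52, -0.35 and 4.75 in mouse 3, and stayed at or below -0.45 in mouse 1. Fibroblast markers lay between 1.15 and 5.18, lowest in myofibers 1 to 3 of mouse 3, where Dcn, a collagen-binding proteoglycan, was -0.69, -2.35 and -0.76 against 2.99 in myofiber 4 and 0.62 to 2.62 in mice 1 and 2. Tm4sf1, a membrane protein of endothelial and other cells, was -0.72, 0.78 and -2.32 there, 3.19 in myofiber 4 and at least 0.50 in mice 1 and 2. Adipocyte markers lay between 0.62 and 3.51, with Fabp4 led by mouse 3 myofiber 4 (2.98), and Egfl7 (0.923) and Acta2 (1.03) had the widest spread of the endothelial and mural lists. The sums of endothelial (3.73 to 4.82), immune (4.31 to 5.15), mural (3.13 to 4.73) and nerve and Schwann markers (1.16 to 2.02) were steadier, with Cd68 (0.433) and Sox10 (0.600) the widest of the immune and nerve lists. Of the satellite cell markers, Pax7 had a value on 1 array and Calcr and Chodl on 0, while Myf5 had values from a minority of its repeated spots (0.261). The satellite cell sum of 4.58 in mouse 1 myofiber 3 came from 1 spot of Cdh15 (4.55) that its quality flags left out of all other results. Over the 8 cells of mice 2 and 3 the sums of the 8 marker lists, not centred on their mouse, correlated with the deviation of Myh1 between -0.50 and -0.06. The means of the tested markers, taken as deviations from the mouse mean, gave -0.616 (immune), -0.597 (fibroblast) and -0.526 (mural). For the other marker lists these centred means gave -0.248 to -0.0100. The part of other cells in the spread of any gene was not tested, and fewer such cells and less RNA per cell cannot be told apart.

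**Figure D4:**
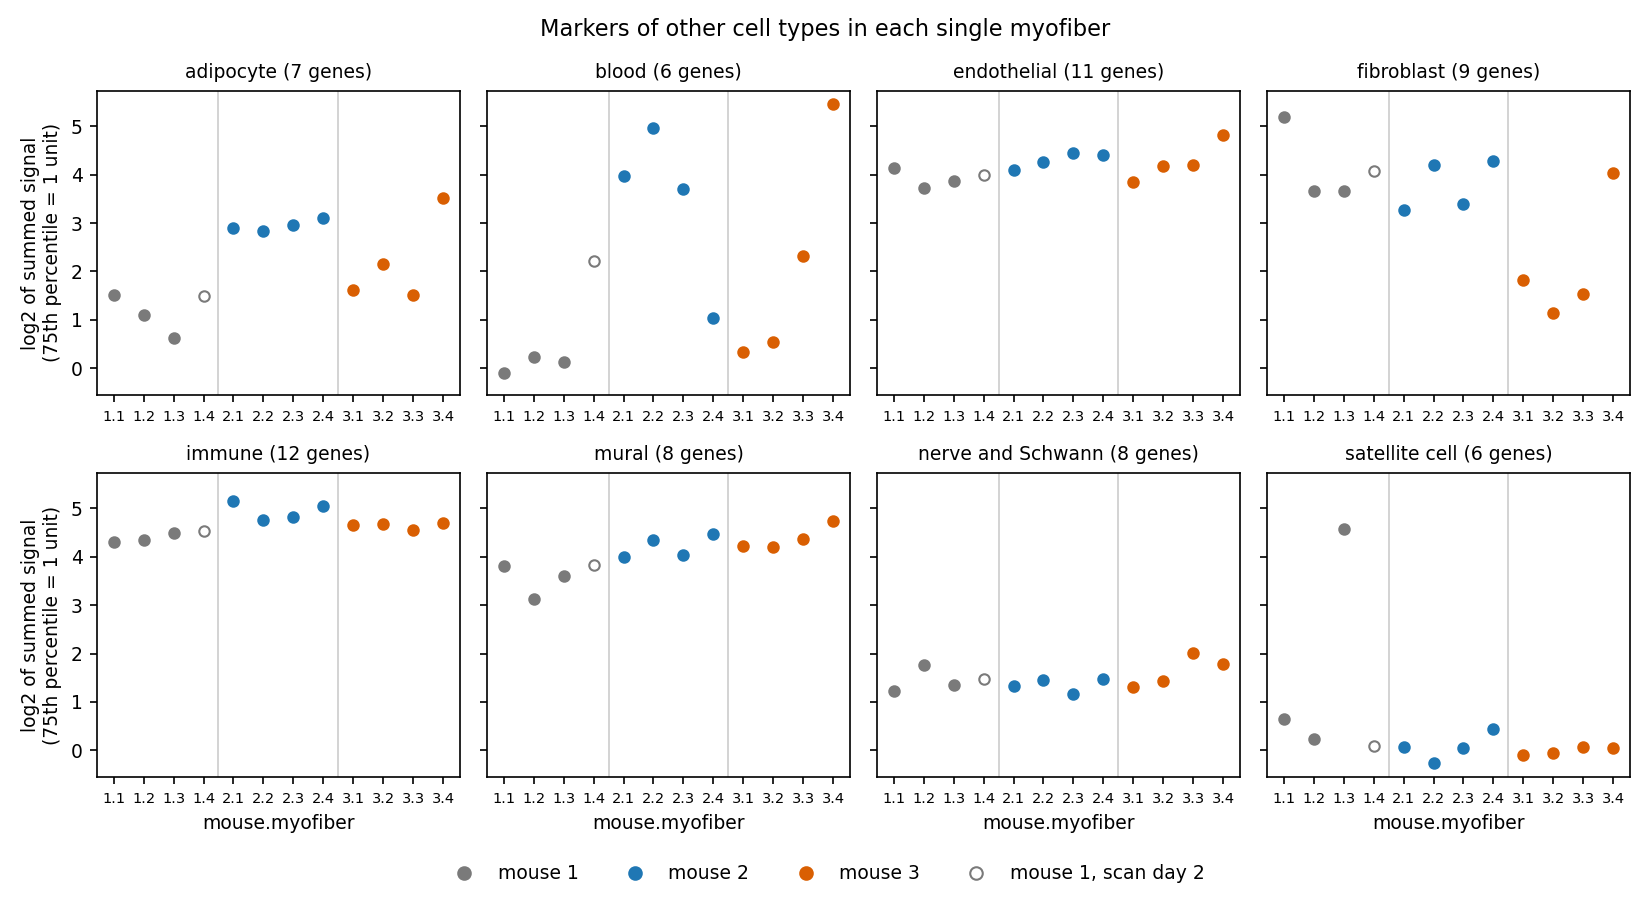
Summed signal of the markers of 8 other cell types on a log2 scale, 1 unit being the array's 75th percentile, in each myofiber (mouse number, then myofiber number; the open point was scanned on the second day). Blood markers reach 5.45 in myofiber 3.4 and are high in 2.1 to 2.3, fibroblast markers are lowest in 3.1 to 3.3, and the satellite cell point at 4.58 in 1.3 is 1 spot of Cdh15 that was left out elsewhere.

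Myofibers of mice 2 and 3 correlated slightly more with others of their own mouse. These mice also lay in different columns of the slide, so mouse and column cannot be told apart in this result. On the scan day and slide shared by mice 2 and 3, the mean correlation within a mouse exceeded that between the mice by 0.00931 (exact two-sided permutation test over the 8 myofibers, p = 0.0286, the smallest p that 70 assignments allow). With the 1000 brightest probes it was 0.00822 (exact permutation test, p = 0.514), and without mouse 3 myofiber 3 it was 0.00542 (exact permutation test, p = 0.114).

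Comparing these 2 animals gene by gene, limma called 31 of 18931 genes (0.164%), of which 4 (0.0211%) were higher and 27 (0.143%) lower in mouse 3. Dbp, a transcription factor driven by the circadian clock, was 2.02, 2.03, 2.08 and 2.02 in mouse 2 and 3.69, 3.64, 3.64 and 3.58 in mouse 3. The difference of 1.60 (SE 0.19, adjusted p = 0.0112) far exceeded the spread within either mouse. Its other probe had -0.40 to 0.62 in mouse 2 and 2.92 to 3.40 in mouse 3. Of the 14 clock genes tested Dbp alone was called. Arntl, which lies on the opposite side of the clock, differed by -1.18 and did not pass (limma, adjusted p = 0.291). Pttg1, the securin of cell division, was higher by 3.82 (SE 0.63, adjusted p = 0.0371), Padi2, an enzyme that turns arginine into citrulline, by 2.17 (0.33, adjusted p = 0.0273) and Slc25a25, a mitochondrial carrier of ATP and magnesium, by 1.61 (0.27, adjusted p = 0.0371). The other probe of Padi2 had means of 1.62 in mouse 2 and 3.95 in mouse 3, and that of Slc25a25 -1.46 and -0.81. The other probe of Pttg1 had a value on only 6 arrays, with means of -3.28 and -2.90.

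Among the lower genes, Nrep, a neuronal regeneration protein, was 2.11, 2.93, 2.12 and 1.67 in mouse 2 and -0.58, -0.47, -1.85 and -1.80 in mouse 3, a difference of -3.38 (SE 0.35, limma, adjusted p = 0.00528). Eaf1, a partner of a transcription elongation factor, was 1.24, 1.57, 1.26 and 1.56 in mouse 2 and -0.76, -1.11, -1.61 and -0.42 in mouse 3 (-2.38, SE 0.25, adjusted p = 0.00528). The groups did not overlap for either gene. Sphk1, a kinase for sphingosine, differed by -2.25 (adjusted p = 0.0241), and its second probe had means of 3.37 in mouse 2 and 1.70 in mouse 3. Errfi1, a feedback inhibitor of the EGF receptor, differed by -2.11 (adjusted p = 0.0121). The other named genes were Evi2a (-2.20), Ippk (-2.14), Dpep1 (-1.97) and Upk1a (-1.92). Non-overlapping signals in the direction of mouse 3 were seen in 8.14% of genes with all 8 values, and in the direction of mouse 2 in 3.60%. The list of fibroblast markers had a median difference of -1.59, and 0 of its 6 tested genes were called. Of the 5 mural markers tested 1 was called, Cspg4, a proteoglycan of pericytes, which was lower in mouse 3 (-1.71, SE 0.25, limma, adjusted p = 0.0348). Calls depended on single arrays: 4 were left without mouse 2 myofiber 2, 8 without mouse 2 myofiber 3 and 10 without mouse 3 myofiber 3, while 64, 93 and 126 were made without mouse 1 myofiber 3, mouse 3 myofiber 4 and mouse 1 myofiber 2. With mice 2 and 3 alone, 108 genes were called, 38 of them higher in mouse 3, and with quantile scaling 82, 25 of them higher. The mice lay in different columns of the slide, so mouse and column cannot be told apart.

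**Figure D5:**
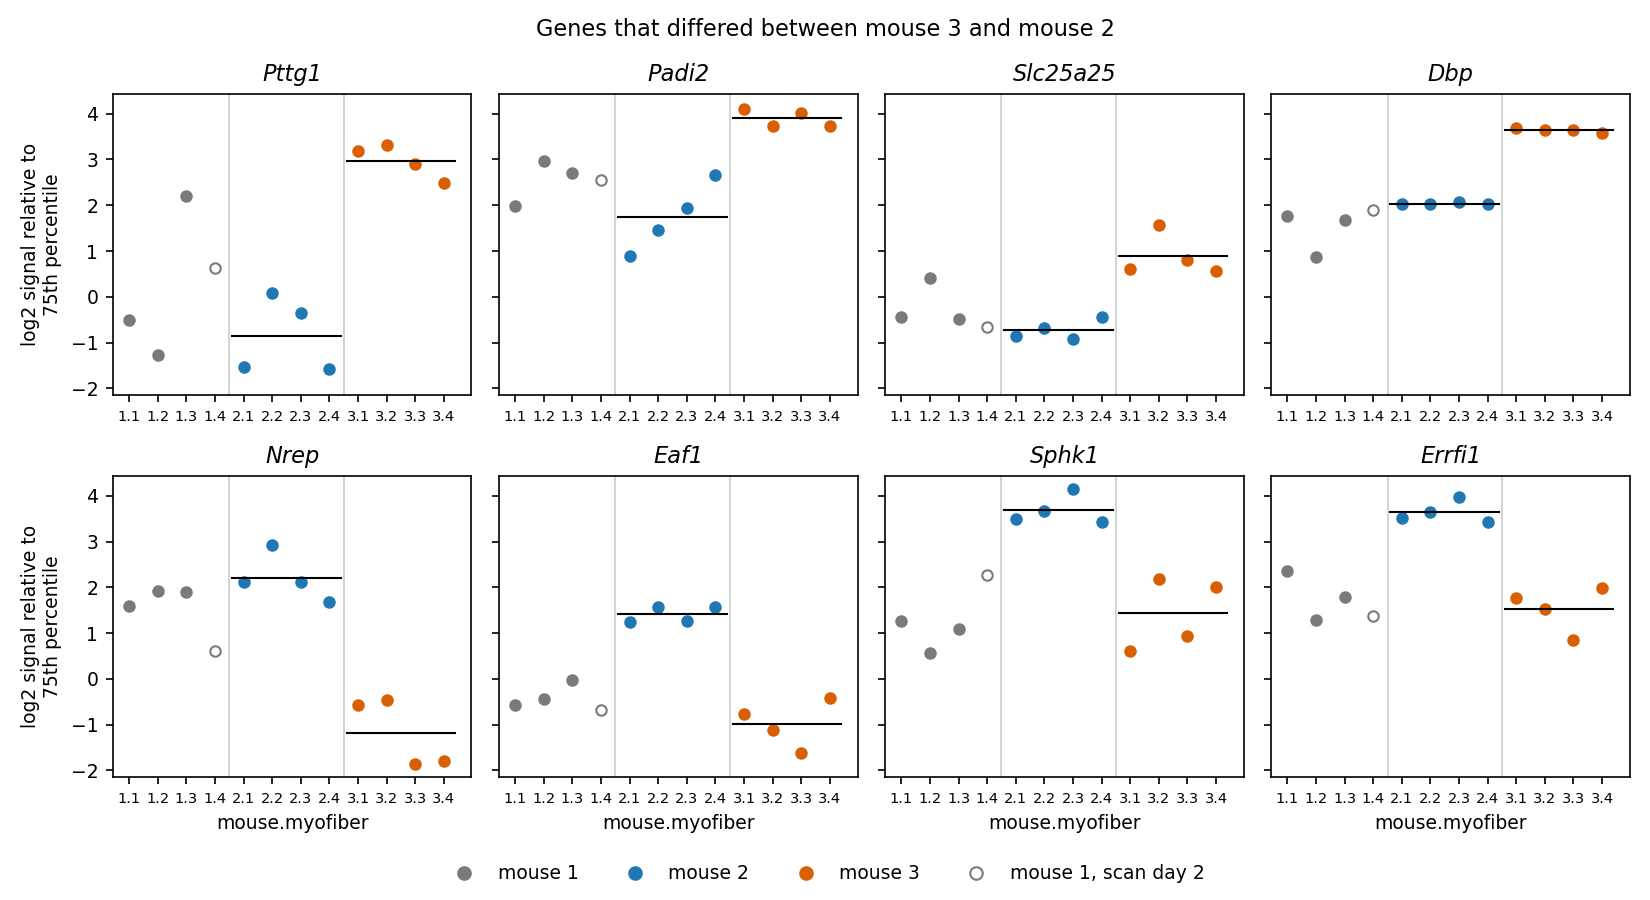
Log2 signal of 8 genes called between mouse 3 and mouse 2, relative to the array's 75th percentile, in each myofiber (mouse number, then myofiber number; the open point was scanned on the second day). Black lines are the means of the 4 myofibers of mice 2 and 3, whose points do not overlap in any of the 8 genes, and the 4 points of mouse 1 are shown for reference.

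Within mouse 1, the 3 myofibers of the first scan day were set against the 1 myofiber of the second. limma called 1054 of 17414 genes (6.05%), 786 (4.51%) higher and 268 (1.54%) lower on the first day, on the assumption that the lone myofiber varies like the others. Cell, slide and scan day cannot be told apart here. Olfr325, an odorant receptor, was 4.24, 5.10 and 4.25 on the first day, -1.64 in myofiber 4 and at most -0.15 in mice 2 and 3 (difference 6.16, adjusted p = 4.52e-06). Btrc, a subunit of a ubiquitin ligase (5.80), Pramel51 (5.61), Sdr42e1 (5.52) and Cenpl, a centromere protein (5.49), showed the same order. For Btrc this rests on 1 probe: another, with values on all 12 arrays, had -1.22, -1.35 and -1.18 on the first day and -1.01 in myofiber 4, a difference of -0.24. The other probe of Cenpl had a value on 7 arrays, all of mice 2 and 3, between -2.67 and -2.20. That of Pramel51 had a value on 0 arrays, so these differences too rest on 1 probe. Osgin1, an oxidative stress response gene, was 2.52, 1.39 and 2.39 on the first day and 5.11 in myofiber 4, beside 4.68 to 5.60 in the other mice (-3.01, adjusted p = 0.000568). Mgat5b, a glycosyltransferase, differed by -2.63 in the same way. Vmn1r62 (-5.07), Ms4a4b (-4.96) and Lonrf3 (-2.71) had a value in only 1 of the 3 myofibers of the first day. The other probe of Ms4a4b had a value on 0 arrays.

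A few genes also differed by the row of the array on its slide. On the slide of mice 2 and 3, odd-numbered myofibers lay in row 1 and even-numbered in row 2. Within mice, 17 of 18731 genes (0.0908%) differed between the rows (limma), all 17 higher in row 1. LOC100048512 was 6.45 and 6.30 in row 1 and 4.00 and 3.85 in row 2 of mouse 2, and 6.24 and 6.73 against 4.33 and 4.45 in mouse 3 (2.27, SE 0.15, adjusted p = 0.00140). Paqr6, a membrane progestin receptor (1.88), Tesc, a calcium-binding protein (1.80), and Fermt2, an integrin activator (1.61), were further members. On the slide of myofibers 1 to 3 of mouse 1, myofiber 2 alone lay in row 2. There LOC100048512 was 6.49, against 7.42 and 7.76 in row 1. Tesc was 7.75 against 7.38 and 7.78, and Fermt2 7.65 against 7.46 and 7.80, with no step between the rows. Whether the position on the slide gave the differences was not tested. The myofibers with high Myh1 in mice 2 and 3 were 2 and 3 of each, 1 in either row.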

How the data were processed

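RNA of single myofibers was profiled on 1-colour Agilent arrays. The authors deposited scanner files made with Agilent Feature Extraction 10.7.3.1, whose intensity per spot is background-subtracted and detrended, and a value table of linear intensity given only for probes above background and equal in distribution between arrays, which served as an alternative. Control spots were left out, log2 of the processed intensity was taken and each array's 75th percentile subtracted. Spots not found, not well above background or uneven were left out, repeated spots averaged, and a probe was kept where 9 or more arrays gave a value. The brightest probe stood for a gene. Of 55681 probes, 26425 (47.5%) were named through RefSeq accessions, the others by the array's own names. limma 3.58.1 in R 4.3.3 fitted a mean per mouse and scan day with trended, robust variances, and p-values were adjusted by Benjamini-Hochberg. The robust variance distribution (prior degrees of freedom 4.11) gave the test for variable genes. The spread was estimated from all arrays except that of mouse 1 myofiber 4, which was alone in its mouse and scan day. Probe coordinates are those of the files (mm9). The scripts were tested on simulated data. The number of arrays limits the precision. Genes named are Smn1 and the adult myosins, the 20 of largest residual SD with a value on all arrays and a symbol other than a clone or locus name, the 15 of highest mean signal, the 8 and 5 of largest difference per direction for mouse and scan day, and the widest member of each of 28 lists. The ranking by likeness to Myh1 and the groups of gaps, with the genes named from them, and Cspg4 and the list members named for their correlation were chosen after the data were seen. Members and lists were chosen with earlier results of these data known. Same-numbered myofibers of mice 2 and 3 deviated together with correlations of -0.188 to 0.313, so the numbers were not taken as pairs.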

Additional observations from a re-analysis of the deposited data

Results flagged for a closer look

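Values that stood apart within the 4 myofibers of a mouse, their gap to the next being a large part of the range, numbered 21 of 229 tested. Chance flags about 1 in 20 groups of unselected genes, but these genes were named for a large spread or a large difference, so nothing can be read from the count. In mouse 1, Btrc, Cenpl, Mgat5b, Olfr325, Pramel51 and Sdr42e1 had been named for the difference of myofiber 4 from the other 3, which their flags restate. Myofiber 4 was lowest for Btrc (0.97), Cenpl (0.15), Cep110 (-1.61), Dpep1 (-1.68), Dpp8 (0.69), Olfr325 (-1.64), Pramel51 (0.85) and Sdr42e1 (1.72), and highest for Mgat5b (3.22). In mouse 2, myofiber 1 was highest for Fpgs (7.14), Sybu (6.17), Cd209d (4.34) and Skint9 (4.15), the last named being a gene of the skin T cell selection family. Mouse 2 myofiber 3 was highest for H2-D1, a class I antigen-presenting molecule (3.05), and for Dbp (2.08, the other 3 lying at 2.02 to 2.03), and lowest for Smox (4.56). In mouse 3, myofiber 3 was highest for Olfr545 (7.12) and Ccdc138 (8.66), myofiber 4 for Hba-a1 (4.75) and myofiber 2 for Mgat5b (4.02), and myofiber 1 was lowest for Olfr325 (-0.69).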

How the results depend on the processing

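Variable genes numbered 0 under every alternative run, including each array left out (0 to 0). For mouse 3 against mouse 2, the 31 calls became 82 with quantile normalization (25 higher in mouse 3), 54 with arrays centred on the probes detected everywhere (9 higher), 65 with normexp (18 higher), 82 with the authors' value table (26 higher), 61 with no filter and all measured signals kept (13 higher) and 108 with mice 2 and 3 only (38 higher). All 31 were among the calls with quantile normalization, centring, the authors' table and mice 2 and 3 only. With an array left out, 4 to 126 genes were called. Nrep and Eaf1 kept their call in all 28 alternatives, Dpep1 lost it in 1 and Dbp in 2, and of 335 differences of the 12 named genes 53 lost the call and 0 changed sign. The replicate block left 6 calls, all among the 31. Same-numbered myofibers correlated at -0.188, 0.101, 0.0802 and 0.313. The excess correlation within a mouse was 0.00822 with the 1000 brightest probes (exact permutation p = 0.514) and 0.00542 to 0.0111 with a myofiber left out. Scan day calls in mouse 1 stayed within 1.5 times. Of the named genes only Btrc reversed: its day difference of 5.80 was -0.24 with probes on all 12 arrays and -0.28 to -0.19 with arrays left out, where another probe of Btrc is then the brightest that passes. The genes that followed Myh1 numbered 28 to 33 of 35 for the respiratory chain and 16 to 20 for fatty acid use over the scalings, filters and probe choices, which were added after seeing the data, as were the slide row and the rule that most of a probe's repeated spots must pass (31 calls). The slide as a block was not run, since slides are nested in mice and scan days. Residual SDs of the 83 named genes moved by less than their standard error in 1829 of 1952 recomputations. Some of these recomputations could hardly move them. A fit without trend and robust variances has the same residual SDs, and mouse 1 myofiber 4 adds nothing to them. The dimmest genes rest on few arrays.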
